A study of Mus musculus with 15 samples.

Results

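Wnt proteins are secreted, lipid-carrying signals, and the genes described here are those that make, receive, restrain or answer them. The deposited expression table of 15 mouse mammary tumour samples was searched by gene symbol for Wnt ligands, Frizzled receptors, Sfrp and Dkk inhibitors, R-spondins and their Lgr receptors, together with Axin2, Lef1, Tcf7, Nkd1, Notum, Porcn, Lrp5 and Lrp6. Of the 17271 genes in the table, 40 matched. They were 11 ligands, the ligand-acylating enzyme Porcn, 10 Frizzled receptors, 2 co-receptors, 4 genes of the R-spondin and Lgr system, 6 secreted inhibitors and 5 target or feedback genes. The symbol search also took Fzd10os, a transcript annotated antisense to Fzd10. The annotated spans of Fzd10os and Fzd10 do not overlap, and the strand used in counting is not given in the sources used here.

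In the canonical branch of the pathway, a Wnt binds a Frizzled receptor and an Lrp co-receptor at the cell surface, and beta-catenin then escapes destruction and joins Lef and Tcf factors on DNA. R-spondins act through Lgr receptors to keep Frizzled proteins on the membrane, Sfrp and Dkk proteins block ligand or co-receptor, and Axin2, Nkd1 and Notum are induced by the signal and feed back on it. In the mammary gland Wnt signals are known for supporting basal stem and progenitor cells, and the mouse mammary tumour virus drives tumours by activating Wnt genes.

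All samples were labelled as mammary tumours of p53-NULL genotype on the Balbc strain, grown in mice. The 4 models compared were 2151R (4 samples), T11 (1 sample), 2225L (2 samples) and 2208L (8 samples). Titles mark 2151R replicates 3 and 4 as NT2 and NT and give replicates 1 and 2 codes of their own. They mark the replicates of 2225L as T-Vivo and ROSEN, and those of 2208L as ROSEN (replicate 1), PBS (replicates 2 to 5) and 3day nt (replicates 6 to 8). The labels do not explain these marks, and give no age. No label says whether samples came from separate animals, so the p-values measure only the spread between these samples, which may be technical. The CP library numbers run in separate ranges for each model and for the PBS and 3day nt subsets of 2208L, so these ranges and the groups cannot be told apart.

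Each value is the log2 ratio of a gene in a sample to an unstated reference level of that gene. Samples can be compared within a gene, but genes cannot be ranked by level, and the sequencing depth is unknown. A gene is called higher or lower where limma, fitted to all 17271 genes, gave a Benjamini-Hochberg adjusted p under 0.05; all 40 Wnt genes were tested with no filter on low values. These are bulk samples, in which fewer cells of a type and less RNA per cell cannot be told apart. Markers of other cell types moved with the models. Of 10 epithelial markers, 9 were called lower in 2151R than in 2208L (22.7% of all genes), with a median difference of -6.43 over the list. The sample means of the list ran from -5.22 to -4.11 in 2151R, 1.19 to 1.22 in 2225L and 0.25 to 1.0 in 2208L, with T11 at -8.96. The mean of 10 skeletal muscle genes was high in 3 libraries, 2151R replicate 3 (6.78) and 2208L replicates 6 (10.17) and 8 (9.61). Centred values do not show whether a marker is expressed at all, and the part of these cell types in the Wnt results was not tested.

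Before the values, the promoter stretches of 2 ligands and 2 target genes are shown, because Wnt signalling reaches genes through Lef and Tcf binding to short DNA words. RefSeq promoter windows on build GRCm38.p6, from 250 bases before to 50 after a start site, were matched to 23 of the 40 genes, with 30 windows. The words CTTTGAT and CTTTGAA were searched on both strands. A match stood in 2 of the 30 windows (6.67%), against 8.65% of 32851 windows of all genes. The windows with a match belonged to Wnt11, whose match lies 51 bases before the start on the reverse strand, and to 1 of 3 start sites of Wnt5b, 71 bases before it. Only the 250 bases before each start are printed, 5′ to 3′ on the gene's strand, and capitals mark the match. Axin2 and Nkd1, the feedback targets whose values are described below, held neither word in their windows, which says nothing about binding elsewhere. Both windows lie inside the annotated spans of these genes, which begin at chr11:108917828 and chr8:88521342. The stretches before those span starts were not searched.
Wnt5b, minus strand, chr6:119449387-119449636: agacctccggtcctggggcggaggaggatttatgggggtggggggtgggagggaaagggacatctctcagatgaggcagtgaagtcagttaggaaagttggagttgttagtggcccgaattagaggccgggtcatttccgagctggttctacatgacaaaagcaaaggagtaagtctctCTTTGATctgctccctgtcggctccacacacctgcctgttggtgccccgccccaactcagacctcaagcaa
Wnt11, plus strand, chr7:98834862-98835111: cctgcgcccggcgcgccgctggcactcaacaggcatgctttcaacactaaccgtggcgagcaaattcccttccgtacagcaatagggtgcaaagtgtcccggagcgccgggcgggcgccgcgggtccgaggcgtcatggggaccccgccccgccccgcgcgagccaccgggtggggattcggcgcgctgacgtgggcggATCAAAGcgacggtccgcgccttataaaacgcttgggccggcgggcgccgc
Axin2, plus strand, chr11:108920099-108920348: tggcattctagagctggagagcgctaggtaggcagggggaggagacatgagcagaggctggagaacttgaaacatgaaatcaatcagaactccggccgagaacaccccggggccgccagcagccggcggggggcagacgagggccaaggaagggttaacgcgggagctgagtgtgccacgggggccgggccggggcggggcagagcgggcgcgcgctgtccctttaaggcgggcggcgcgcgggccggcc
Nkd1, plus strand, chr8:88527383-88527632: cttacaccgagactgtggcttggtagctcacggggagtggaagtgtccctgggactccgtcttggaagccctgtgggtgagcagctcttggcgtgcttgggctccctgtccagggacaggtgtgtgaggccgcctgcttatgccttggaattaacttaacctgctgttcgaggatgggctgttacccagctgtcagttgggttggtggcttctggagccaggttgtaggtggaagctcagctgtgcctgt

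The models differed in many Wnt genes, but so they did over the whole transcriptome. Against 2208L, 2151R had 7 Wnt genes called higher, where 26.1% of all genes were, and 13 called lower, where 22.7% of all genes were. The 20 calls make 50% of the Wnt genes, against 48.8% of all genes, so the share called was near the background. The median absolute difference was 1.51 over the Wnt genes and 0.68 over all genes, while the signed medians were -0.04 and 0.10. Against 2208L, 2225L had 14 Wnt genes called higher (15.6% of all genes) and 4 called lower (17.3% of all genes), with a median absolute difference of 1.48, against 0.63 over all genes. Values of both groups did not overlap in 18 Wnt genes between 2151R and 2208L (38.8% of all genes), and in 17 between 2225L and 2208L (31.7% of all genes). In the latter comparison the signed median was 0.26 over the Wnt genes and -0.04 over all genes. Between 2225L and 2151R, 17 Wnt genes were called higher in 2225L (22.8% of all genes) and 6 lower (25.8% of all genes), 28 did not overlap (62.4% of all genes), and the medians of the signed differences were 1.38 over the Wnt genes and -0.10 over all genes. These 3 comparisons share samples.

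**Figure D1:**
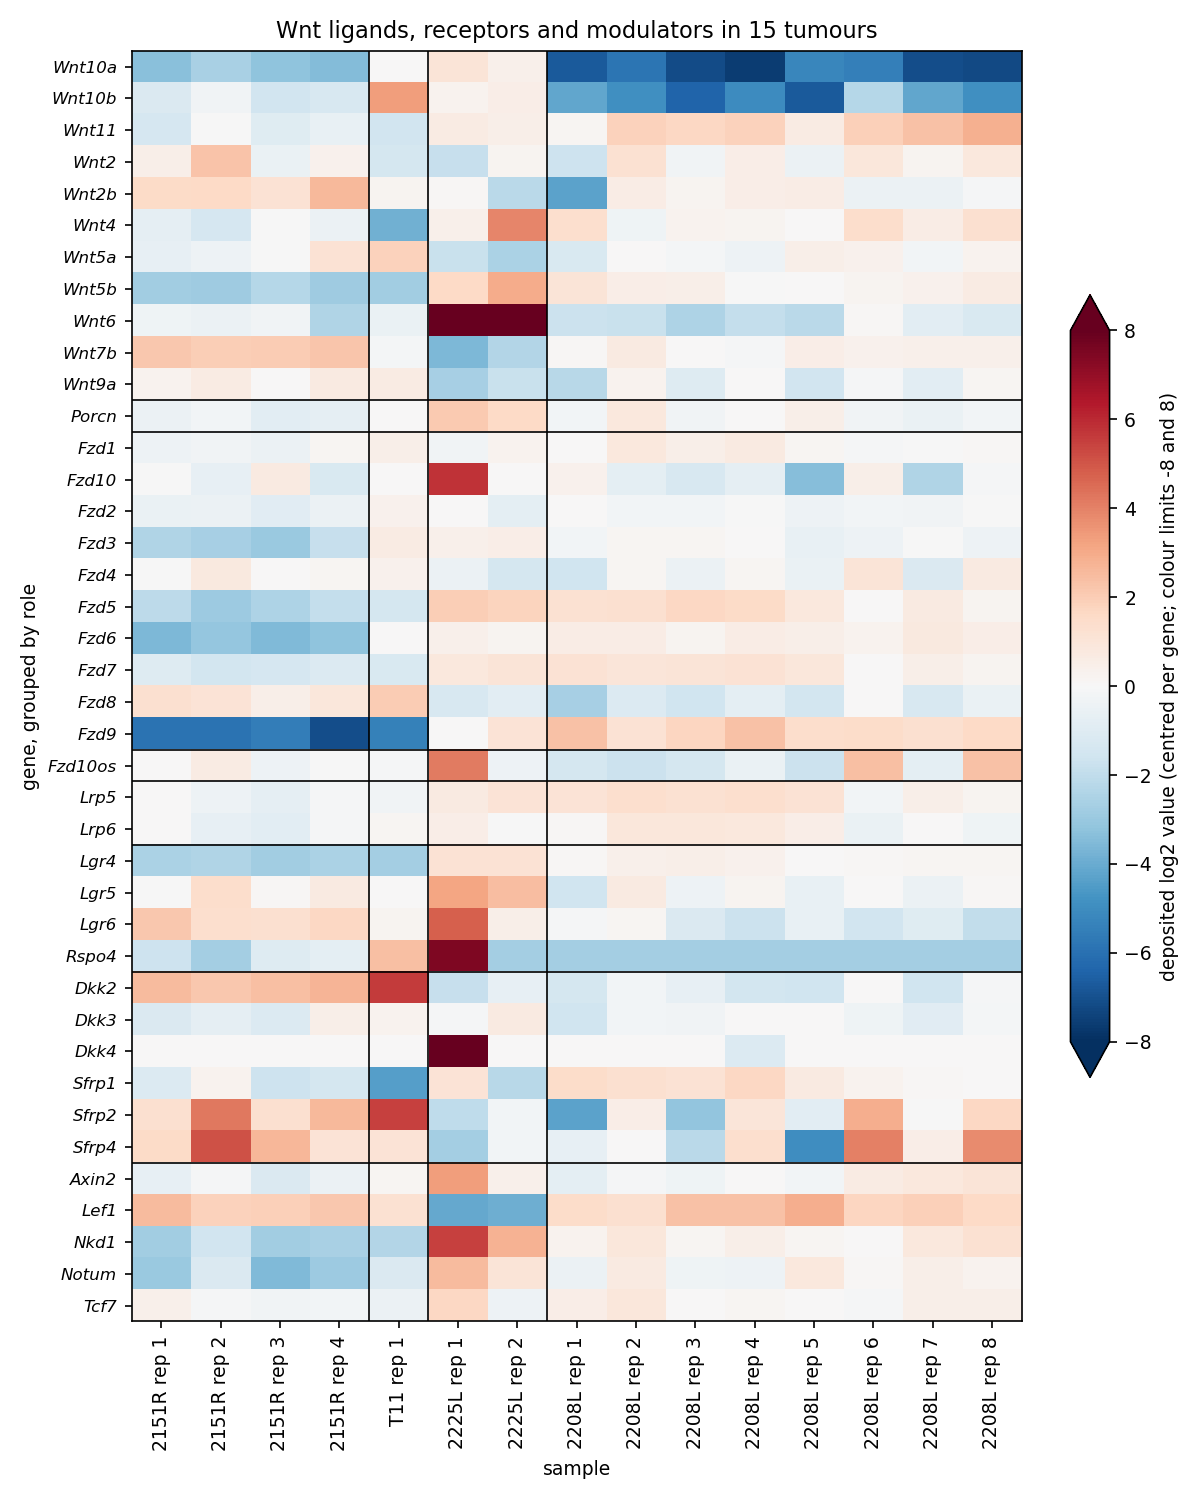
Log2 value of each of the 40 Wnt genes (rows, ordered by role) in each of the 15 samples (columns, ordered by model), relative to the unstated reference level of the gene, with colours capped at -8 and 8. Wnt6 is high in both 2225L samples, Fzd9 is low in 2151R and T11, and the first 2225L sample alone is high in Dkk4, Rspo4 and Fzd10.

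Against 2208L, 6 of the 11 ligands were called in 2151R (4 up, 2 down), or 54.5%, against 48.8% of all genes. In 2225L, 7 were called (4 up, 3 down), or 63.6%, against 32.9% of all genes. Wnt6, an ectodermal Wnt of the canonical branch, read 9.38 and 8.56 in the 2225L samples. In 2151R it read -0.36, -0.44, -0.28 and -2.42, in T11 -0.51, and in 2208L from -2.50 to 0.06 with a median of -1.76. Both 2225L samples thus lay far above the other 13. The difference between 2225L and 2208L was 10.48 (SE 0.64, limma adjusted p = 1.24e-07), and that between 2225L and 2151R was 9.85 (SE 0.70, adjusted p = 1.57e-07).

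Wnt10a, a ligand of skin appendages and teeth, lies close to Wnt6. In 2208L it read from -7.58 to -5.21 with a median of -6.89. The 2151R samples read -3.33, -2.59, -3.21 and -3.50, T11 read 0.00, and the 2225L samples read 1.02 and 0.38. The 3 replicated models did not overlap, in the order 2208L, 2151R, 2225L. Wnt10a was higher than in 2208L by 3.38 (SE 0.43, adjusted p = 2.67e-05) in 2151R and by 7.23 (SE 0.56, adjusted p = 1.09e-06) in 2225L, and was higher in 2225L than in 2151R by 3.85 (SE 0.61). Fitted with a spread that depends on the mean value, limma called none of these Wnt10a differences (adjusted p = 0.479, 0.274 and 0.572).

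On GRCm38.p6, Wnt6 spans chr1:74754342-74785322 and Wnt10a chr1:74792019-74804176, a gap of 6697 bases. The 10 nearest genes in the table around Wnt6, 5 on each side, were compared between 2225L and 2208L. In 2225L, 6 were called higher (15.6% of all genes), with Wnt10a among them, and 0 lower (17.3% of all genes). The others called were Gm29539, which lies between both ligands (3.44), Nhej1 (1.92), Stk36 (1.64), Rnf25 (1.42) and Ttll4 (1.36). Prkag3 (3.32), Ihh (1.13), Slc23a3 (0.38) and Cyp27a1 (-0.92) were not called.

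Wnt10b, a ligand of the embryonic mammary bud, had the same order of the replicated models, but not of T11. Between 2225L and 2151R limma did not call Wnt10b (1.45, SE 0.91, adjusted p = 0.206). It read from -6.72 to -2.30 in 2208L with a median of -4.88, and -1.18, -0.31, -1.50 and -1.26 in 2151R. The 2225L samples read 0.26 and 0.52, and T11 was highest at 3.37. Neither 2151R nor 2225L overlapped 2208L. The differences from 2208L were 3.75 (SE 0.65, adjusted p = 3.26e-04) in 2151R and 5.20 (SE 0.83, adjusted p = 4.27e-04) in 2225L. The gene lies at chr15:98770712-98778206. Of its 10 nearest genes, 0 were called higher (15.6% of all genes) and 1 lower (17.3% of all genes) in 2225L than in 2208L. In 2151R, 6 were called higher (26.1% of all genes) and 0 lower (22.7% of all genes) than in 2208L.

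Wnt5b, a ligand mostly known from the branch without beta-catenin, was low in 2151R, at -2.77, -2.87, -2.26 and -2.87, and in T11, at -2.79. It read 1.62 and 2.97 in 2225L, and from -0.02 to 1.02 in 2208L with a median of 0.42. The 3 replicated models did not overlap. It was lower in 2151R than in 2208L by -3.10 on the log2 scale (SE 0.25, adjusted p = 3.96e-07) and higher in 2225L than in 2208L by 1.89 (SE 0.33, adjusted p = 7.65e-04). Wnt11, another ligand of that branch, was lower in 2151R than in 2208L (-2.38, SE 0.43, adjusted p = 4.69e-04) and was not called between 2225L and 2208L.

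Wnt7b, which in breast tumours is also made by macrophages, ran the other way. Values were 2.18, 1.99, 2.06 and 2.20 in 2151R, -3.60 and -2.32 in 2225L, and -0.07 to 0.69 in 2208L with a median of 0.35; T11 read -0.15. No 2 of the replicated models overlapped. Wnt7b was higher in 2151R than in 2208L by 1.81 (SE 0.22, adjusted p = 1.32e-05) and lower in 2225L than in 2208L (-3.25, SE 0.28, adjusted p = 2.82e-06). Of 10 macrophage markers, 7 were called higher in 2151R (26.1% of all genes) and 5 lower in 2225L (17.3% of all genes) than in 2208L. Sample means of that list ran from 0.36 to 0.74 in 2151R, -1.63 to -1.03 in 2225L and -1.31 to 0.30 in 2208L. What part macrophage content has in the Wnt7b differences was not tested.

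Among the remaining ligands, Wnt5a (-2.05, SE 0.46, adjusted p = 0.00405) and Wnt9a (-1.56, SE 0.56, adjusted p = 0.0488) were lower in 2225L than in 2208L. Without 2225L replicate 2, which left 1 sample of 2225L, the Wnt5a difference was -1.69 and its call was lost. The Wnt5a call was also lost with sample weights (adjusted p = 0.2325). The Wnt9a call was lost without either 2225L sample (-1.14 without replicate 1 and -1.98 without replicate 2, adjusted p = 0.284 and 0.0787) and without any one of 6 of the 2208L samples. Wnt2b, called higher in 2151R than in 2208L (2.13, SE 0.80, adjusted p = 0.0412), lost its call without any one of the 2151R samples (adjusted p from 0.0563 to 0.123) and without 2208L replicate 6, 7 or 8 (adjusted p from 0.0513 to 0.0582). Against the PBS samples of 2208L alone the Wnt2b difference was 1.23 (adjusted p = 0.0545), and without the libraries with high muscle genes it was 2.37 (adjusted p = 0.0848). Wnt4, a luminal ligand downstream of progesterone, differed by 2.82 (SE 0.78, adjusted p = 0.00919) between 2225L and 2151R, but by 1.06 (adjusted p = 0.242) without 2225L replicate 2. Wnt2, a ligand often made by stromal cells, was called in none of these model comparisons by limma. Wnt9a was not called between 2151R and 2208L (1.09, SE 0.44, adjusted p = 0.0539). It was called higher in 2151R under several alternatives, among them median centring, quantile normalization and sample weights. Porcn, which attaches the lipid that Wnts need for secretion, read 2.10 and 1.61 in 2225L, -0.46, -0.20, -0.83 and -0.73 in 2151R, 0.02 in T11 and -0.53 to 0.86 in 2208L with a median of -0.21. Porcn was higher in 2225L than in 2208L by 1.87 (SE 0.32, adjusted p = 6.38e-04), a call lost with sample weights (adjusted p = 0.0728). It was not called between 2151R and 2208L (-0.54, SE 0.25), except with 2208L PBS samples only (-0.83, adjusted p = 0.0288) and with sample weights (-0.70, adjusted p = 0.00710).

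**Figure D2:**
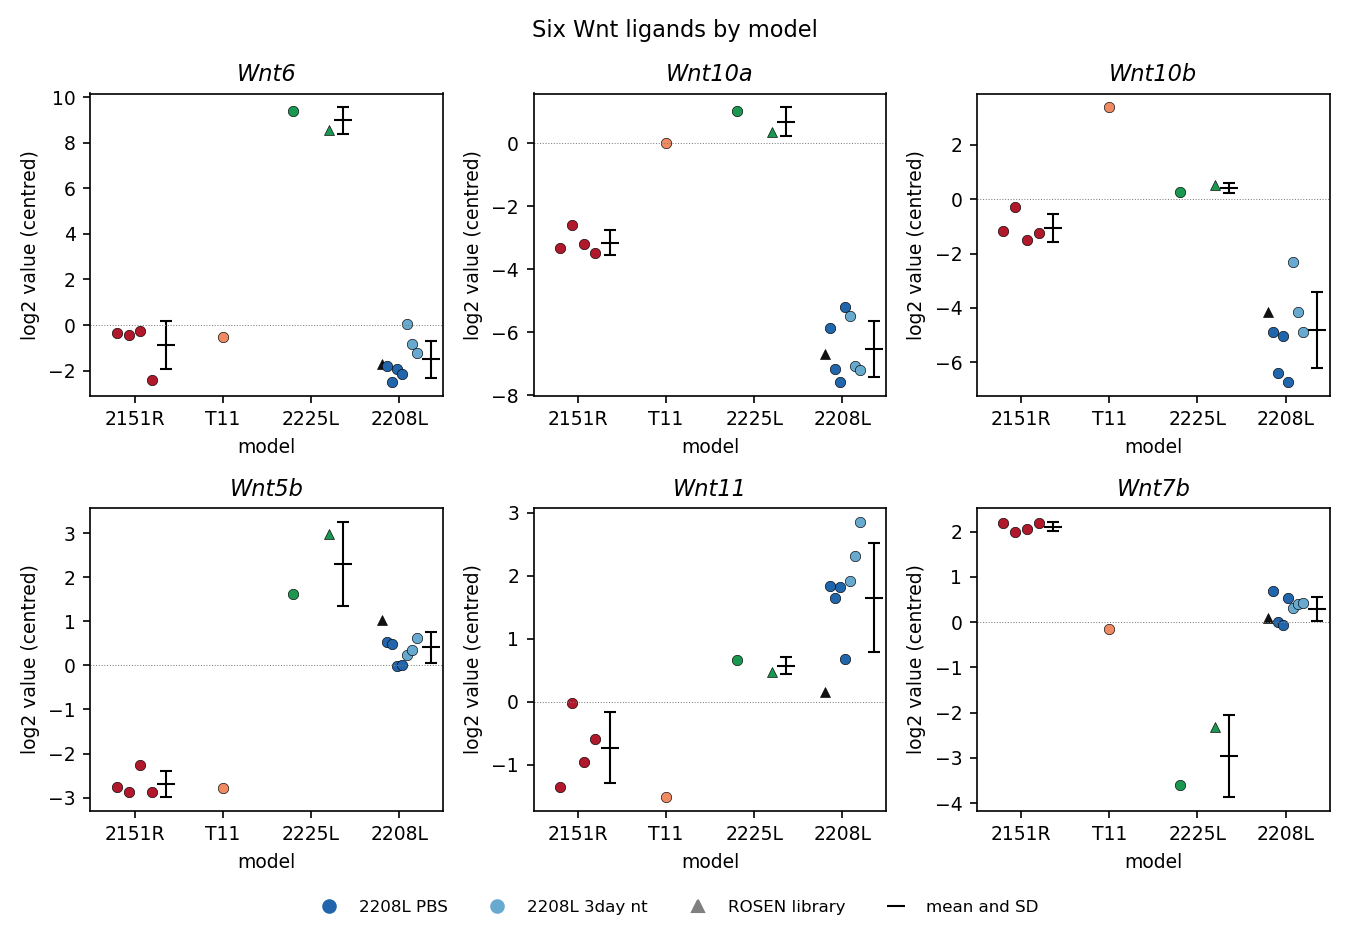
Log2 values of 6 Wnt ligands in each sample by model, with the mean and SD as bars; triangles mark libraries with ROSEN in the title, blue PBS and light blue 3day nt samples. Wnt6 stands apart in 2225L, Wnt10a and Wnt10b are lowest in 2208L, Wnt5b and Wnt11 are low in 2151R and T11, and Wnt7b is highest in 2151R.

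Receptors were mostly lower in 2151R than in 2208L, with 6 called lower (22.7% of all genes) and 1 higher (26.1% of all genes). Of the 10 Frizzled genes, Fzd9, Fzd6, Fzd5, Fzd3, Fzd7 and Fzd2 were called lower in 2151R than in 2208L. Fzd8 was called higher (2.12, SE 0.38, adjusted p = 4.78e-04), and Fzd1, Fzd4 and Fzd10 were not called. Fzd1 (-0.53, SE 0.21, adjusted p = 0.0514) was called lower under several alternatives. Among them were median centring, quantile normalization, sample weights and 2208L PBS samples only. Fzd9 read -5.88, -5.94, -5.56 and -7.11 in 2151R and -5.42 in T11. It read 0.00 and 1.09 in 2225L, and from 1.17 to 2.33 in 2208L with a median of 1.52. All 2151R samples and T11 were at least 5 log2 units below every other sample. The Fzd9 difference between 2151R and 2208L was -7.78 (SE 0.32, adjusted p = 4.46e-10), and between 2225L and 2151R it was 6.67 (SE 0.46, adjusted p = 1.17e-07).

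Fzd6, a receptor of the planar polarity branch, read -3.59, -3.10, -3.55 and -3.25 in 2151R. T11 read 0.02, the 2225L samples 0.40 and 0.23, and 2208L from 0.23 to 0.80 with a median of 0.55. Here T11 did not share the low level of 2151R. The difference from 2208L in 2151R was -3.88 (SE 0.14, adjusted p = 1.48e-10). Fzd3, also of the polarity branch, had the same split, with T11 at 0.65 and a 2151R difference of -2.29 (SE 0.21, adjusted p = 1.33e-06).

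Fzd5 was low in both, at -2.11, -2.88, -2.45 and -1.93 in 2151R and -1.41 in T11, against 2.0 and 1.78 in 2225L and 0.00 to 1.65 in 2208L with a median of 1.02. The 2151R difference from 2208L was -3.28 (SE 0.31, adjusted p = 1.50e-06). Fzd7, a receptor of mammary basal cells, was lower in 2151R by -1.99 (SE 0.23, adjusted p = 9.57e-06). The small Fzd2 difference (-0.41, SE 0.16, adjusted p = 0.0459) lost its call without any one of the 2151R samples and without any one of 7 of the 2208L samples. Between 2225L and 2208L, Fzd10 was the receptor called, and its value rested on 1 sample, as given below.

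Of the co-receptors, Lrp5 was called between 2151R and both other replicated models. Lrp5 read 0.00, -0.43, -0.74 and -0.12 in 2151R, -0.29 in T11, 0.75 and 1.10 in 2225L and -0.22 to 1.36 in 2208L with a median of 1.15. It was lower in 2151R than in 2208L by -1.15 (SE 0.30, adjusted p = 0.00633), with overlap. That call was lost when only the samples titled NT, nt or PBS were used. Set against the 3day nt samples of 2208L alone, the Lrp5 difference was -0.47 (adjusted p = 0.138). Between 2225L and 2151R it was 1.25 (SE 0.43, adjusted p = 0.0275), a call lost without either 2225L sample (adjusted p = 0.0548 and 0.159) and without 2151R replicate 2 or 3 (adjusted p = 0.0514 and 0.0626). Lrp6 read 0.06, -0.66, -0.82 and -0.11 in 2151R, 0.17 in T11, 0.54 and -0.01 in 2225L and -0.55 to 0.90 in 2208L with a median of 0.33, and limma called it in no comparison of models. Its difference of -0.69 (SE 0.31, adjusted p = 0.0802) between 2151R and 2208L was called with 2208L PBS samples only (-1.18, adjusted p = 0.00263), with sample weights (-0.88, adjusted p = 0.00272), without 2208L replicate 6 (-0.81, adjusted p = 0.0311) and without the libraries with high muscle genes (-0.79, adjusted p = 0.0388).

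In the R-spondin arm, Lgr4, a widely expressed R-spondin receptor, was lower in 2151R than in 2208L (-2.77, SE 0.12, adjusted p = 6.71e-10), higher in 2225L than in 2208L (0.92, SE 0.16, adjusted p = 6.16e-04), and low in T11 at -2.72. Lgr5, a Wnt target that marks stem cells in several epithelia, was higher in 2225L than in 2208L by 3.07 (SE 0.49, adjusted p = 4.27e-04). It was higher in 2225L than in 2151R by 2.25 (SE 0.54, adjusted p = 0.00393). Sample weights removed the Lgr4 call between 2225L and 2208L (adjusted p = 0.0560). They also removed the Lgr5 call between 2225L and 2151R (adjusted p = 0.06315). Lgr6, a related receptor, read 2.18, 1.37, 1.28 and 1.65 in 2151R, 0.23 in T11, 4.81 and 0.49 in 2225L, and -1.96 to 0.18 in 2208L with a median of -1.06. It was higher than in 2208L in 2151R (2.60, SE 0.64, adjusted p = 0.00436) and in 2225L (3.63, SE 0.82, adjusted p = 0.00457). The latter call was lost without 2225L replicate 1 (1.47, adjusted p = 0.119).

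Rspo4, an R-spondin of nail development, had the single value -2.74 in all 8 samples of 2208L and in 2151R replicate 2, which is the lowest in the table for this gene. Its origin is not given in the sources used here, and no fold is printed against 2208L. The remaining 2151R samples read -1.67, -1.06 and -0.76, T11 read 2.42, and the 2225L samples read 7.49 and -2.71.

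**Figure D3:**
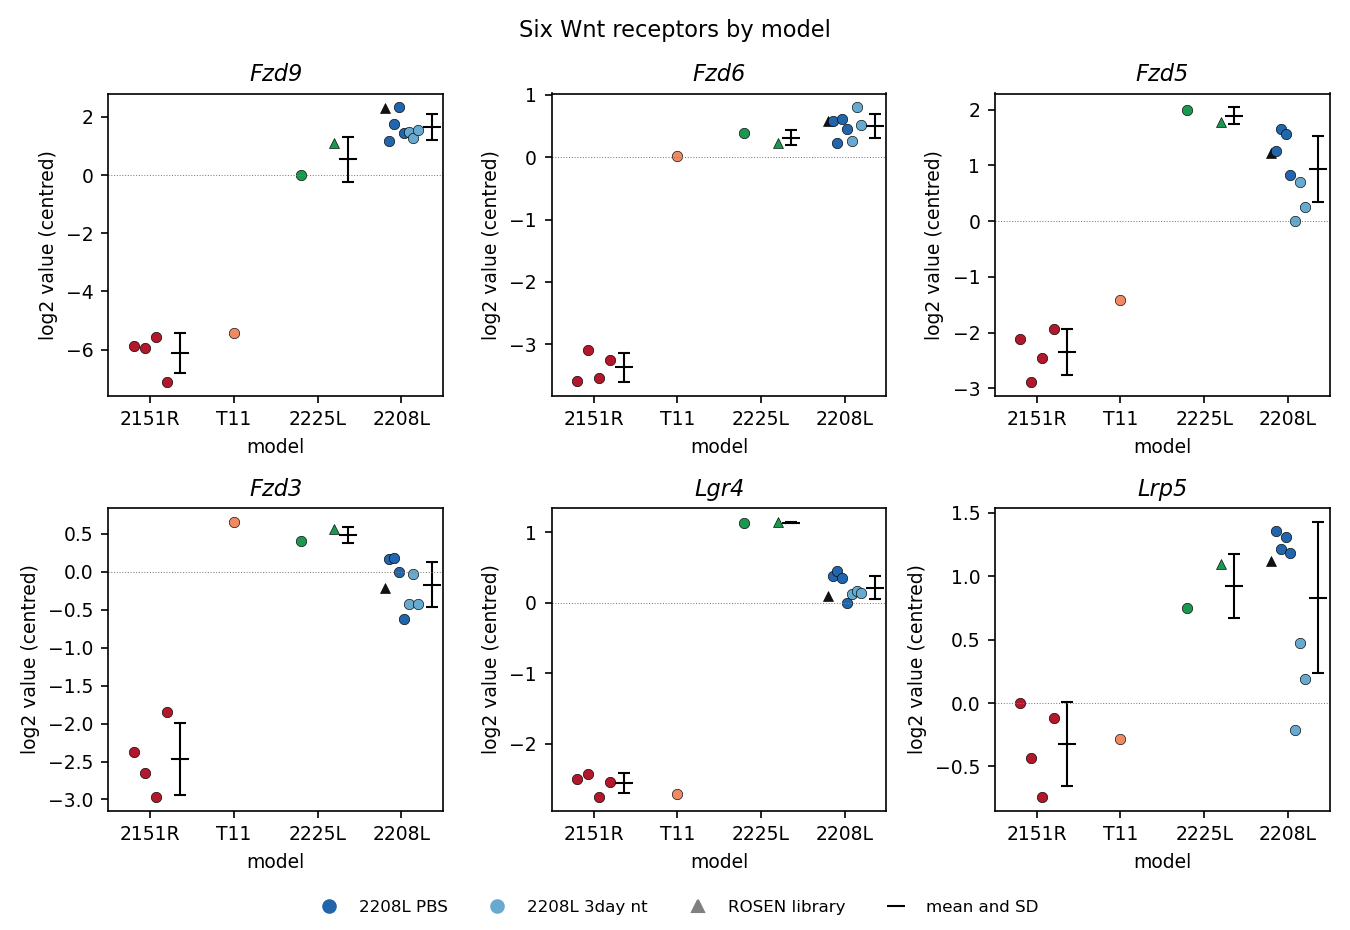
Log2 values of 4 Frizzled receptors, Lgr4 and Lrp5 in each sample by model, with the mean and SD as bars; triangles mark ROSEN libraries, blue PBS and light blue 3day nt samples. Fzd9, Fzd5 and Lgr4 are low in 2151R and T11, Fzd6 and Fzd3 in 2151R but not in T11, and Lrp5 overlaps between 2151R and 2208L.

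Among the secreted inhibitors, Dkk2, an Lrp antagonist, was high in 2151R, at 2.55, 2.16, 2.40 and 2.75, and in T11, at 5.59. The 2225L samples read -1.81 and -0.68, and 2208L ran from -1.61 to 0.00 with a median of -1.03. The 2151R samples lay above all of 2225L and 2208L. The difference between 2151R and 2208L was 3.35 (SE 0.36, adjusted p = 5.38e-06). Sfrp1, a Wnt-binding protein often lost in breast cancer, was lower in 2151R than in 2208L (-1.79, SE 0.56, adjusted p = 0.0172), read -4.38 in T11, and lost its call without 2151R replicate 3 (-1.56, adjusted p = 0.0607) or replicate 4 (-1.64, adjusted p = 0.0553). Against the 3day nt samples of 2208L alone the Sfrp1 difference was -1.08 (adjusted p = 0.266). Sfrp2 and Sfrp4, secreted Wnt binders made mostly by fibroblasts, spread widely within 2208L, from -4.26 to 2.91 and from -4.95 to 4.01. Neither was called by limma between models, and neither was Dkk3, a divergent member of the Dkk family. Each was called under some alternatives, such as Sfrp2 between 2151R and 2208L with quantile normalization. Of 10 fibroblast markers, 4 were called higher in 2151R than in 2208L (26.1% of all genes).

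Of the feedback targets, Nkd1 and Notum separated 2151R from 2225L widely, while the Axin2 difference rested largely on 2225L replicate 1. Nkd1, which binds Dishevelled and dampens the signal, read -2.76, -1.55, -2.76 and -2.61 in 2151R and -2.37 in T11. It read 5.45 and 2.78 in 2225L, and from 0.00 to 1.24 in 2208L with a median of 0.40. The 3 replicated models did not overlap, in the order 2151R, 2208L, 2225L. The differences were -2.94 (SE 0.42, adjusted p = 6.94e-05) between 2151R and 2208L, 3.60 (SE 0.54, adjusted p = 2.76e-04) between 2225L and 2208L, and 6.53 (SE 0.59, adjusted p = 1.53e-06) between 2225L and 2151R. Without 2225L replicate 1, Nkd1 stayed higher in 2225L than in 2208L by 2.27 and remained called.

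Notum, the enzyme that removes the lipid from Wnts, had the same order of means. It read -2.95, -1.13, -3.51 and -2.90 in 2151R, -1.18 in T11, 2.50 and 1.03 in 2225L and -0.46 to 0.82 in 2208L with a median of 0.19. It was lower in 2151R than in 2208L (-2.77, SE 0.43, adjusted p = 1.29e-04). The higher value in 2225L than in 2208L (1.62, SE 0.55, adjusted p = 0.0369) was not called without 2225L replicate 1 (0.89, adjusted p = 0.361) or without 2208L replicate 1, 3 or 4 (adjusted p from 0.0505 to 0.0572).

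Axin2, the beta-catenin scaffold used as a general readout of the canonical branch, was not called between 2151R and 2208L. It read -0.65, -0.08, -1.17 and -0.46 in 2151R, 0.19 in T11 and -0.75 to 1.02 in 2208L with a median of -0.05. The difference between 2151R and 2208L was -0.72 (SE 0.48, adjusted p = 0.230). With the library prefix as a covariate it was -0.93 and called (adjusted p = 0.0431). Whether Axin2 differed from Nkd1 or Notum in this comparison was not tested. The 2225L samples read 3.35 and 0.43. Axin2 was higher in 2225L than in 2151R by 2.48 (SE 0.67, limma adjusted p = 0.00831). Without 2225L replicate 1, which left 1 sample of 2225L, that difference was 1.02 and its call was lost. The Axin2 call between 2225L and 2208L (1.76, SE 0.61, adjusted p = 0.0419) was lost without 2225L replicate 1 (0.30, adjusted p = 0.726) and without any one of 2208L replicates 1 to 5 (adjusted p from 0.0554 to 0.0639).

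Lef1 and Tcf7 encode DNA-binding partners of beta-catenin, and both are also expressed in T cells. Lef1 read -4.07 and -3.90 in 2225L, 2.56, 1.86, 1.89 and 2.13 in 2151R, 1.22 in T11 and 1.29 to 2.89 in 2208L with a median of 1.80. Both 2225L samples lay at least 5 log2 units below every other sample. Lef1 was lower in 2225L than in 2208L by -5.93 (SE 0.36, adjusted p = 1.19e-07) and than in 2151R by -6.10 (SE 0.39, adjusted p = 6.63e-08). Of 15 T cell markers, 1 was called higher (15.6% of all genes) and 2 lower (17.3% of all genes) in 2225L than in 2208L. The sample means of that list were -1.45 and 0.36 in 2225L, within the range of -1.49 to 1.0 in 2208L. Tcf7 read 1.68 and -0.43 in 2225L, 0.38, -0.09, -0.30 and -0.20 in 2151R, -0.49 in T11 and -0.08 to 0.94 in 2208L with a median of 0.30, and limma called it in no comparison. Without 2225L replicate 2 it was called higher in 2225L than in 2208L (1.37, adjusted p = 0.0130) and than in 2151R (1.73, adjusted p = 0.00303). In 2225L, Lef1 was thus low where Nkd1, Lgr5 and Wnt6 were high.

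**Figure D4:**
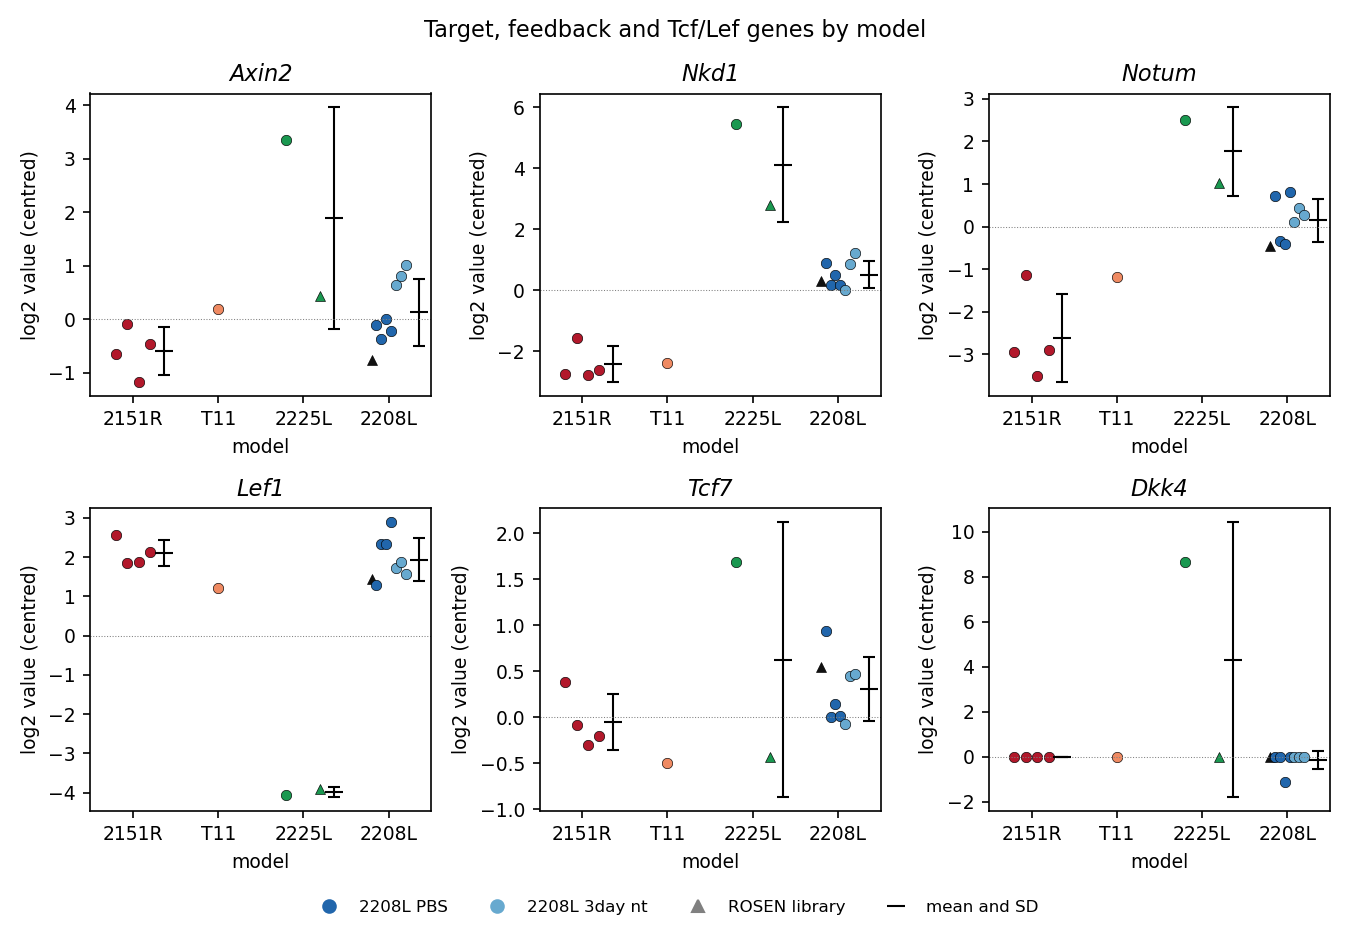
Log2 values of Axin2, Nkd1, Notum, Lef1, Tcf7 and Dkk4 in each sample by model, with the mean and SD as bars; triangles mark ROSEN libraries, blue PBS and light blue 3day nt samples. Nkd1 rises from 2151R through 2208L to 2225L, Lef1 is low in both 2225L samples, and Dkk4 is off 0 in 1 sample of 2225L and 1 of 2208L.

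In 2225L, replicate 1 is a CP library titled T-Vivo and replicate 2 a ROSEN library. These marks and the replicates thus cannot be told apart. The 2 samples of 2225L differed from each other in several Wnt genes. The values of Dkk4, Fzd10 and Rspo4 are given for this reason, chosen after they were seen. Dkk4, a Wnt-induced antagonist of Lrp co-receptors, read 8.63 in replicate 1 and 0.00 in replicate 2, which is also its value in T11, all 4 samples of 2151R and 7 of 8 in 2208L. Fzd10 read 5.79 and 0.00, Fzd10os 4.17 and -0.40, Lgr6 4.81 and 0.49, Axin2 3.35 and 0.43, and Rspo4 7.49 and -2.71. Replicate 1 was higher by at least 2 log2 units in 10 Wnt genes (25.0%), where 5.53% of all genes were, and lower by as much in 3 (7.5%), where 6.06% were. Without replicate 1, 1 sample of 2225L remained, so only differences from 2208L are given, with those of both samples in brackets. They were 0.30 (1.76) for Axin2, 0.99 (3.89) for Fzd10, 1.47 (3.63) for Lgr6 and 0.89 (1.62) for Notum. Wnt6 was at 10.07 (10.48), Wnt10a at 6.91 (7.23) and Wnt10b at 5.34 (5.20). Lgr5 was at 2.73 (3.07), Nkd1 at 2.27 (3.60) and Lef1 at -5.84 (-5.93). Dkk4 and Rspo4 rested on repeated values in 2208L, and their differences are left out.

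Around Fzd10 (chr5:128601106-128604093), some of the nearest genes in the table also differed between the 2225L samples. Fzd10os ends 419 bases before Fzd10. Rimbp2, the next gene on the other side, read 8.42 in replicate 1 and -0.81 in replicate 2, and Glt1d1, beyond Fzd10os, read 6.37 and -1.21. Slc15a4 and Stx2, the genes after those, read 0.00 and 0.12, and -1.15 and -0.78. Tmem132b, beyond Slc15a4, was high in both 2225L samples, at 6.86 and 5.94, and differed from 2208L by 8.71.

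**Figure D5:**
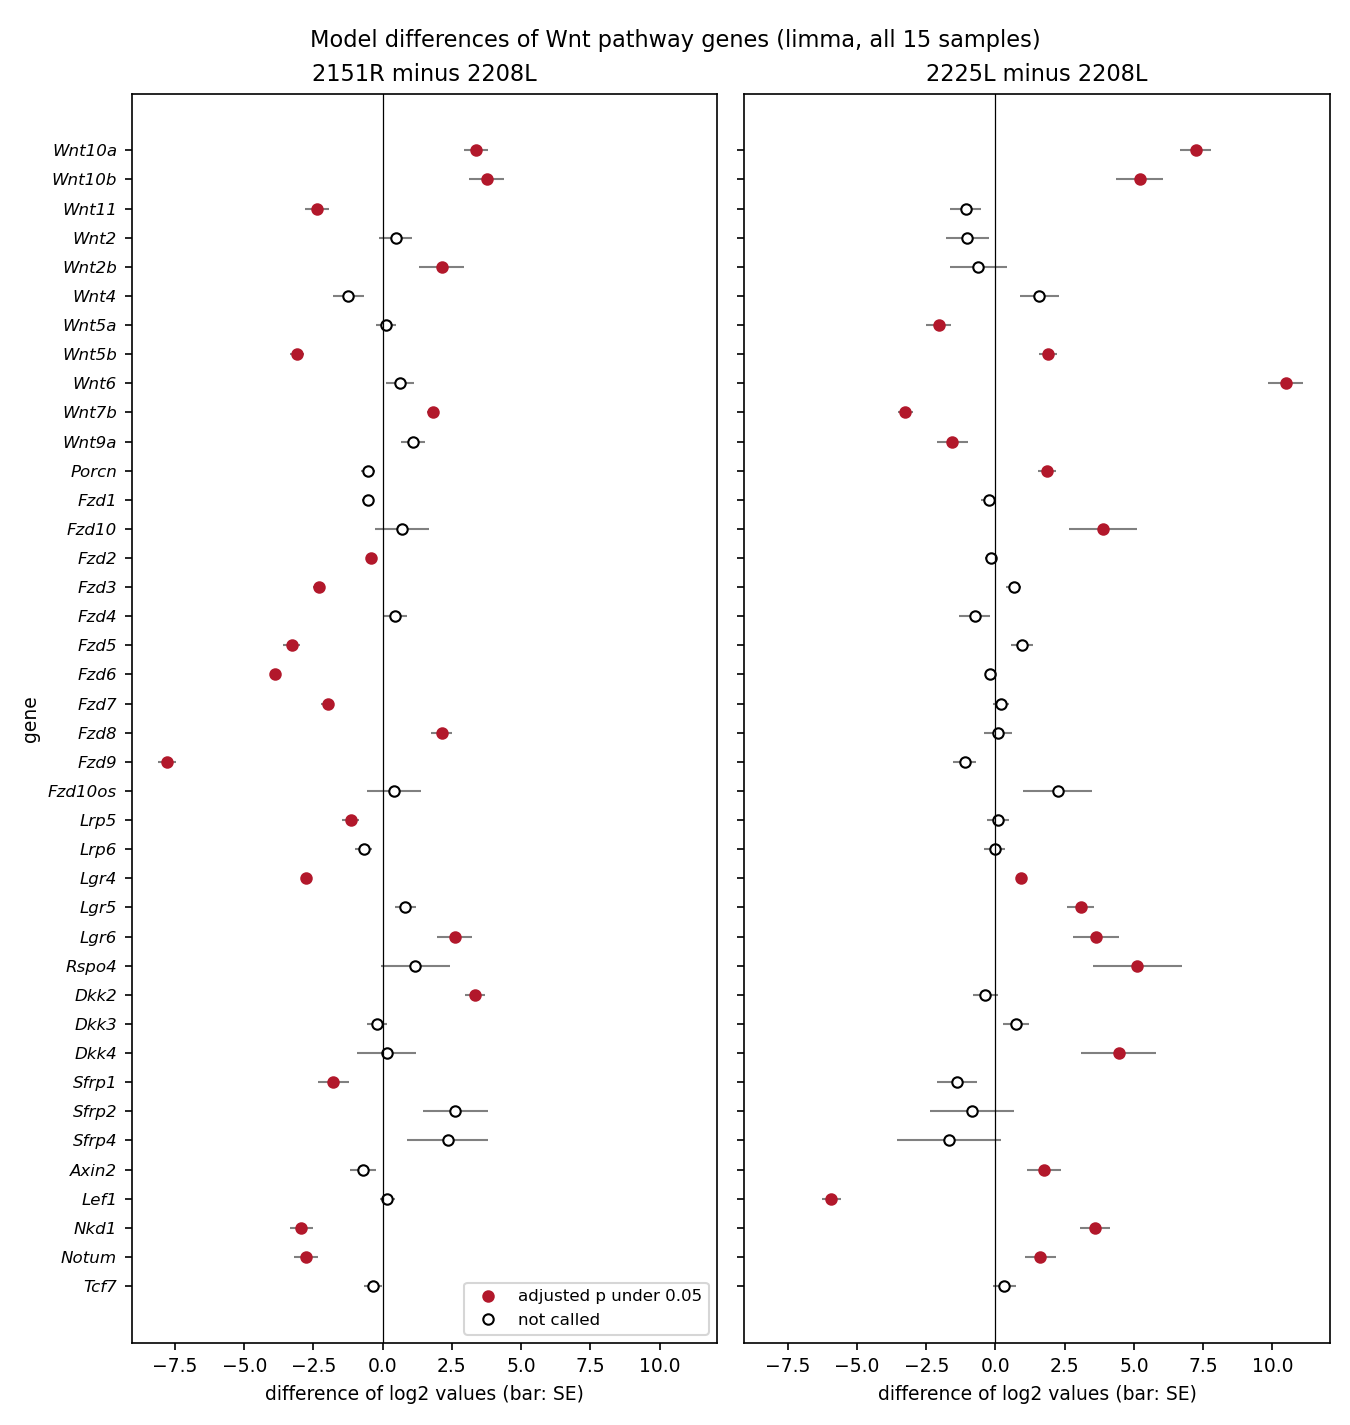
Difference in mean log2 value from 2208L for each of the 40 Wnt genes in 2151R and in 2225L, with the limma SE as error bars and called genes filled. Fzd9 is at -7.78 in 2151R, Wnt6 at 10.48 in 2225L and Lef1 at -5.93 in 2225L; both sides share the 2208L samples, and Rspo4 and Dkk4 rest on repeated values there.

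T11 was a single sample, so its values carry no test and no replicate check. Of the Wnt genes, 12 lay above the whole range of 2208L (35.8% of all genes) and 15 below it (21.7% of all genes), together 67.5%, against 57.5% of all genes. Against 2151R, 16 lay above the range (39.9% of all genes) and 9 below it (30.8% of all genes), together 62.5%, against 70.7%. Against the 2 samples of 2225L, 14 lay above (45.5% of all genes) and 19 below (35% of all genes), together 82.5%, against 80.5%. T11 shared the low Fzd9, Fzd5, Lgr4, Wnt5b and Nkd1 of 2151R, and read above every other sample in Dkk2 (5.59), Sfrp2 (5.48), Wnt10b (3.37), Fzd8 (2.01), Wnt5a (1.86), Fzd3 (0.65) and Fzd2 (0.37). It read below every other sample in Sfrp1 (-4.38), Wnt4 (-3.82), Wnt11 (-1.51) and Tcf7 (-0.49).

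Within 2208L, the 4 PBS samples were set against the 3 samples titled 3day nt; the labels do not say how nt animals were handled. In PBS, 6 Wnt genes were called higher (17.4% of all genes) and 4 lower (16.5% of all genes), 10 of 40 or 25.0%, against 34% of all genes; 12 did not overlap, where 44.8% of all genes did not. Lrp5 read 1.36, 1.22, 1.31 and 1.19 in PBS and -0.22, 0.47 and 0.19 in 3day nt, a difference of 1.12 (SE 0.17, adjusted p = 0.00653). Lrp6 read 0.89, 0.90, 0.84 and 0.55 against -0.55, 0.02 and -0.34, a difference of 1.09 (SE 0.17, adjusted p = 0.00671). Both co-receptors were thus higher in every PBS sample than in any 3day nt sample.

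Receptors and inhibitors were also called in the subset comparison. Fzd5 read 1.26, 1.65, 1.56 and 0.83 in PBS and 0.00, 0.70 and 0.25 in 3day nt, a difference of 1.01 (SE 0.26, adjusted p = 0.0255). Sfrp1 read 1.31, 1.17, 1.64 and 0.69 against 0.29, 0.09 and 0.00, a difference of 1.08 (SE 0.23, adjusted p = 0.0144). Fzd7 (0.79) and Wnt2b (0.81) completed the higher genes.

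On the lower side, Axin2 read -0.10, -0.37, 0.00 and -0.22 in PBS and 0.64, 0.81 and 1.02 in 3day nt, a difference of -1.0 (SE 0.14, adjusted p = 0.00541). Wnt6 read -1.79, -2.50, -1.92 and -2.13 against 0.06, -0.82 and -1.23 (-1.42, SE 0.33, adjusted p = 0.0191), and Wnt4 read -0.33, 0.29, 0.22 and 0.00 against 1.41, 0.56 and 1.28 (-1.04, SE 0.25, adjusted p = 0.0220). Groups did not overlap in these 3 genes, but did in Fzd10os (-2.70, adjusted p = 0.0426). In the fit of all 15 samples, Axin2, Wnt6, Wnt4 and Fzd10os were not called. Nkd1 and Notum, the feedback genes beside Axin2, were not called.

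Replicates 6 and 8, both 3day nt, were the 2208L libraries with high muscle genes. Without them, which left 1 sample of 3day nt assumed to vary like the others, limma called 0 of the 40 genes, with 9 at an unadjusted p under 0.05, and 0.567% of all genes, with 20% unadjusted. The Axin2 difference was then -0.99 (adjusted p = 0.128), Lrp5 0.79 (adjusted p = 0.131), Lrp6 0.78 (adjusted p = 0.172), Wnt6 -1.26 (adjusted p = 0.155), Fzd5 0.62 (adjusted p = 0.399), Wnt4 -0.52 (adjusted p = 0.384) and Fzd10os -0.61 (adjusted p = 0.558). Leaving out replicate 2, 6 or 8 alone reduced the Wnt genes called lower in PBS from 4 to 2, with Fzd10os and Wnt4 losing their calls each time. Over all genes, those called lower in PBS fell from 2857 to 1844, 1227 and 1017 in these fits. The Fzd5 call was lost without any one of replicates 2, 3, 4, 6 and 8 (adjusted p from 0.0567 to 0.0905), and that of Sfrp1 without replicate 8 (1.01, adjusted p = 0.0630). Of 15 T cell markers, 5 were called lower in PBS than in 3day nt (16.5% of all genes).

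The rest of the pathway was read from lists of 93 further Wnt genes, of which 79 were in the table. Between 2151R and 2208L, 15 were called higher and 26 lower (51.9%, against 48.8% of all genes). Between 2225L and 2208L the counts were 15 and 15 (38.0%, against 32.9%), and between 2225L and 2151R 26 and 14 (50.6%, against 48.6%). Of the 14 nuclear factors, 0 were higher and 1 lower between 2225L and 2208L. In PBS against 3day nt, 18 were higher and 5 lower (29.1%, against 34%).

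The 3 called genes with the largest difference in each direction are given for each comparison of models. Dact2 and Nkd2, both Dishevelled-binding feedback proteins, were lower in 2151R than in 2208L. Dact2 read -6.78, -4.92, -6.82 and -7.40 in 2151R, against 0.00 to 1.83 in 2208L, a difference of -7.42 (SE 0.41, adjusted p = 1.39e-10). Nkd2 read -3.68, -3.87, -4.19 and -3.63, against 2.57 to 3.54, a difference of -6.99 (SE 0.21, adjusted p = 4.62e-14). Celsr1, a planar polarity cadherin, was lower by -5.81 (SE 0.25), with 2151R from -5.14 to -4.41.

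Higher in 2151R than in 2208L were Draxin, a Wnt antagonist and axon guidance protein (3.62, SE 0.63), Apcdd1, a membrane inhibitor of Wnt signalling (2.87, SE 0.19), and Ccn5, a secreted protein found as a Wnt target (2.64, SE 0.61). Draxin read 2.83, 3.52, 2.23 and 3.40 in 2151R and at most 0.77 in 2208L. Against 2151R, 2225L was higher in Celsr1 (7.73), Dact2 (7.77) and Sostdc1 (7.82), and lower in Draxin (-4.93), Ccn5 (-3.97) and Cd44 (-2.89), a cell surface glycoprotein and Wnt target.

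In 2225L against 2208L, the largest higher differences were those of a secreted protein and 2 surface proteins. Sostdc1, a secreted inhibitor of Wnt and BMP signals, read 9.34 and 8.48 in 2225L and from -1.04 to 1.78 in 2208L (8.88, SE 0.74, adjusted p = 2.06e-08). Kremen2, a Dkk receptor, read 8.34 and 7.41 against -0.69 to 3.01 (7.69, SE 0.73, adjusted p = 1.00e-07), with 3 samples of 2208L at the repeated value of 0.00. Lypd6, a surface protein that binds Lrp6, read 1.65 and 0.00 against -6.35 to -1.73 (5.50, SE 0.99, adjusted p = 8.83e-05), with 3 samples of 2208L at the repeated value of -5.24. The Lypd6 call was lost with a spread that depends on the mean value (adjusted p = 0.0884).

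Called lower in 2225L than in 2208L were Frzb, a secreted Frizzled-related protein (-2.74, SE 0.94, adjusted p = 0.0123), Nkd2 (-2.60, SE 0.27, adjusted p = 2.60e-07) and Tspan12, a Frizzled-associated tetraspanin (-2.08, SE 0.62, adjusted p = 0.00490). Frzb read -2.44 and 0.69 in 2225L, and without replicate 1 its difference was -1.17 (adjusted p = 0.464). The Tspan12 samples read -1.71 and 1.53, and without replicate 1 the difference was -0.46 (adjusted p = 0.513). Nkd2, at 1.05 and 0.05 in 2225L, was lower there than in 2208L, where Nkd1 was higher. Of 7 basal epithelial markers, 5 were called higher in 2225L than in 2208L (15.6% of all genes). Sample means of the 7 markers ran from 3.69 to 5.85 in 2225L and from 0.65 to 1.78 in 2208L. The part of these markers in the differences above was not tested.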

How the data were processed

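Expression in 15 samples and 17271 genes was deposited as log2 values, with each gene centred on a reference level that is not stated; any offset before the logarithm is not given either. Per the labels' protocols, libraries were made from poly(A) RNA with a TruSeq kit. STAR, Salmon and the genome build mm10 are named in the submitters' processing notes, without versions or roles. The table holds no counts, so depth is unknown and errors come only from replicate spread.

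The model named in each title set the groups; replicate numbers follow accession order and pair nothing. Differences were tested with the functions lmFit and eBayes of limma 3.58.1 under R 4.3.3 on the values as deposited, in 1 fit of 15 samples with a mean per model, and for PBS against 3day nt in a fit of those 7 samples. All 17271 genes were tested and adjusted together. The fit was checked on simulated data. Values per sample are given for the 8 called genes of each model comparison with the largest difference and no overlap between groups, for 6 such genes of the subset comparison, and always for Axin2, Lef1, Tcf7, Nkd1, Notum, Porcn, Lrp5 and Lrp6; of the further pathway lists, the 3 called genes with the largest difference in each direction are named. The Wnt genes, the pathway and marker lists and the tests were chosen with earlier results of these data known. Positions and promoter sequences come from RefSeq on GRCm38.p6, the build family of mm10, and 17 of the 40 genes had no promoter entry. Alternatives were other scalings (median centring, quantile normalization), sample weights, trended or robust spread, a minimum difference of 1, left-out genes of low spread or with repeated values, subsets of samples, a library prefix term and leaving out each sample.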

Additional observations from a re-analysis of the deposited data

Results flagged for a closer look

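In the groups 2151R (4 samples), 2208L (8 samples) and its PBS subset (4 samples), 1 sample stood apart from the rest in 8 of 117 combinations of a Wnt gene and a group, where chance would give about 1 in 20. In 2208L, Wnt2b read -4.26 in replicate 1, the ROSEN library, against -0.45 to 0.60 in the others. Dkk4 read -1.11 in 2208L replicate 4, among the 8 samples of 2208L and among its PBS samples alike, where all others were at 0.00. In the PBS samples, Tcf7 read 0.94 in replicate 2 against 0.00 to 0.14, and Wnt2b read 0.19 in replicate 3 against 0.56 to 0.60. In 2151R, Nkd1 read -1.55 in replicate 2 against -2.76 to -2.61, Wnt5b read -2.26 in replicate 3 against -2.87 to -2.77, and Wnt6 read -2.42 in replicate 4 against -0.44 to -0.28.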

How the results depend on the processing

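No paired analysis was possible because no label numbers the replicates. The numbers of Wnt genes called in each direction between 2151R and 2208L, and of those higher in 2225L than in 2151R, stayed within 1.5 times under every alternative run. With sample weights, the genes called higher in 2225L than in 2208L went from 14 to 7 and those lower from 4 to 2; leaving out 1 sample gave 9 to 16 higher. Over all genes, sample weights took the calls in 2225L against 2208L from 2693 to 958 higher and from 2994 to 1200 lower. With only the samples of both models, 10 Wnt genes rather than 6 were lower in 2225L than in 2151R. All genes called lower there went from 4464 to 4245. In PBS against 3day nt (6 higher, 4 lower), sample weights gave 10 higher and 11 lower. Over all genes, sample weights took these calls from 3007 to 5938 higher and from 2857 to 5754 lower. In the fit of all 15 samples, 4 were higher, without Sfrp1 and Wnt2b, and 1 was lower. That 1 was Wnt10b, while Axin2, Fzd10os, Wnt4 and Wnt6 all lost their calls. Leaving out 1 sample gave 2 to 6 lower, where all genes called lower ran from 1017 to 3111. The fit without the libraries with high muscle genes is given above. The cause was not tested.

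No called difference of a Wnt gene or of a further pathway gene named above changed sign, apart from Dkk4 between 2225L and 2151R. That difference ran from 0.00 without 2225L replicate 1 to 8.63 without replicate 2. Of the uncalled differences, only those of Axin2, Lef1, Tcf7, Nkd1, Notum, Porcn, Lrp5 and Lrp6 were followed. Those that changed sign were the following. Lef1 between 2151R and 2208L was -0.11 with PBS samples only and -0.0001 with samples titled NT, nt or PBS. Lrp5 between 2225L and 2208L was -0.21 with quantile normalization, -0.18 with sample weights, -0.19 without the libraries with high muscle genes, -0.035 with the library prefix, -0.34 with PBS samples only and from -0.084 to 0.27 with 1 sample left out. Lrp6 there was 0.092 with the library prefix, 0.56 with 3day nt samples only and from -0.31 to 0.24 with 1 sample left out. With 1 sample left out, Tcf7 in 2225L differed by -0.74 to 1.37 from 2208L and by -0.38 to 1.73 from 2151R. In PBS against 3day nt, Tcf7 was 0.056 with median centring and 0.081 with quantile normalization; with 1 sample left out, Tcf7 ran from -0.23 to 0.085, Notum from -0.28 to 0.12 and Nkd1 from -0.61 to 0.0068. Of the alternatives to the single-gene differences followed, 2010 kept the direction and call, 149 lost the call, 11 gained one and 30 changed sign. Uncalled differences of other Wnt genes are not in these counts. Several of those gained calls, among them Fzd1 and Wnt9a between 2151R and 2208L. Depth is unknown, so no limit from it can be given.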
